A study of Mus musculus with 11 samples.

Results

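The insulin-like growth factor (IGF) system was followed through 10 genes, chosen by gene symbol: the ligands Igf1 and Igf2, the receptors Igf1r and Igf2r, and the binding proteins Igfbp2, Igfbp3, Igfbp4, Igfbp5, Igfbp6 and Igfbp7. They were 10 of the 12393 genes measured, and 23 of the 20380 probe sets that name a single gene belonged to them. Affymetrix arrays read messenger RNA from mouse JB6 cells, a skin epidermal line used to study how attached cells gain the ability to grow without anchorage. 4 groups were compared, and 11 arrays were used. RT101 colonies (3 arrays) were RT101 cells, a tumour variant of JB6 given no growth factor, grown in soft agar and collected on day 7. RT101 monolayer (2 arrays) was the same variant growing attached, also with no growth factor. bFGF-JB6 colonies (3 arrays) were parental JB6 clone 41-5A cells given 10 ng/ml basic fibroblast growth factor (bFGF) in soft agar and collected on day 7. bFGF-JB6 monolayer (3 arrays) was the parental clone growing attached, labelled as bFGF-treated, with no dose or time stated. RT101 is a single variant line and clone 41-5A a single clone. No attached or agar-grown parental cells without bFGF were used here, so in any comparison of RT101 with bFGF-JB6 the line and the growth factor cannot be told apart. Nothing in the labels tells whether replicate arrays were separate cultures. Each p-value therefore measures only the spread among these samples, and that spread may be technical.

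IGF ligands act through the IGF1 receptor, a tyrosine kinase at the cell surface that recruits adaptors such as IRS1 and drives growth and survival signalling; the IGF2 receptor instead takes up IGF2 for breakdown and also carries lysosomal enzymes. Secreted binding proteins hold the ligands away from the receptor or bring them to it, and proteases release the ligand by cutting them. In skin the IGF1 receptor is known for supporting keratinocyte growth, and signalling through it is widely needed for growth of transformed cells in soft agar.

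Signals are given as deposited, on the log2 scale that RMA makes, where a difference of 1 is a doubling or halving of signal. Array medians ran from 5.82 to 5.95 and lower quartiles from 3.78 to 3.91, and a mean at or below 3.91 is called near the bottom of the scale here, because RMA gives no detection calls and compresses differences there. Arrays of a group correlated at 0.989 to 0.998 over the 22626 probe sets that were not controls. Gapdh control probe sets read 0.35 higher at the 3' than the 5' end on bFGF-JB6 colonies replicate 3 and 0.19 higher on bFGF-JB6 monolayer replicate 1, against -0.08 to -0.01 on the other 9 arrays, and results were also computed without these 2 arrays. Of 11 keratinocyte markers measured, 4 (Krt5, Krt10, Krt8 and Itga6) had means above 3.91 in each group, while Cdh1 (2.39 to 2.45) and Krt14 (3.61 to 3.80), both defining markers, did not. Of 12 fibroblast and mesenchymal markers 9 did, with Vim at 12.87 to 13.16.

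Each gene is represented by its brightest probe set unless another is named, and a gene is called when its Benjamini-Hochberg adjusted p over all 12393 genes, from limma's moderated test, is under 0.05. In RT101 colonies against RT101 monolayer 4 of the 10 genes were called, Igf2r, Igfbp6 and Igfbp7 higher and Igf1r lower, where 32.4% of all genes were called. In bFGF-JB6 colonies against bFGF-JB6 monolayer 4 were also called, Igfbp5 and Igfbp7 higher and Igfbp4 and Igfbp6 lower, where 29.4% of all genes were called. By its brightest probe set Igfbp7 rose in the colonies of both lines, while its other sets were not called in RT101 colonies. Igfbp6 was the member called in opposite directions, which held for 4.44% of all genes. The colony changes of the lines differed by the test of the difference for Igfbp4, Igfbp5 and Igfbp6, 3 of 10 genes against 27.7% of all genes. RT101 and bFGF-JB6 differed for 5 members as monolayers (44.4% of all genes) and for 7 as colonies (43.3% of all genes). Apart from the last, these shares lie near those of all genes, and none of them is taken as a result about the family. The 7 called as colonies went in both directions, 3 higher and 4 lower in RT101. With the mean of probe sets Igf2 lost its call there and Igf1 gained one. Changes of at least 2-fold were called for 2 members in RT101 colonies (5.79% of all genes), 1 in bFGF-JB6 colonies (3.49%) and 2 for the difference (7.81%). With the mean of probe sets the Igfbp7 changes fell under 2-fold (0.51 in RT101 colonies, 0.74 in bFGF-JB6 colonies). Igfbp5 then passed it in bFGF-JB6 colonies (2.09) and for the difference (-1.84), where Igfbp4 did not (0.96). The median change of the 10 genes was 0.16 in RT101 colonies and 0.05 in bFGF-JB6 colonies, with medians of -0.01 and 0.03 over all genes.

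**Figure D1:**
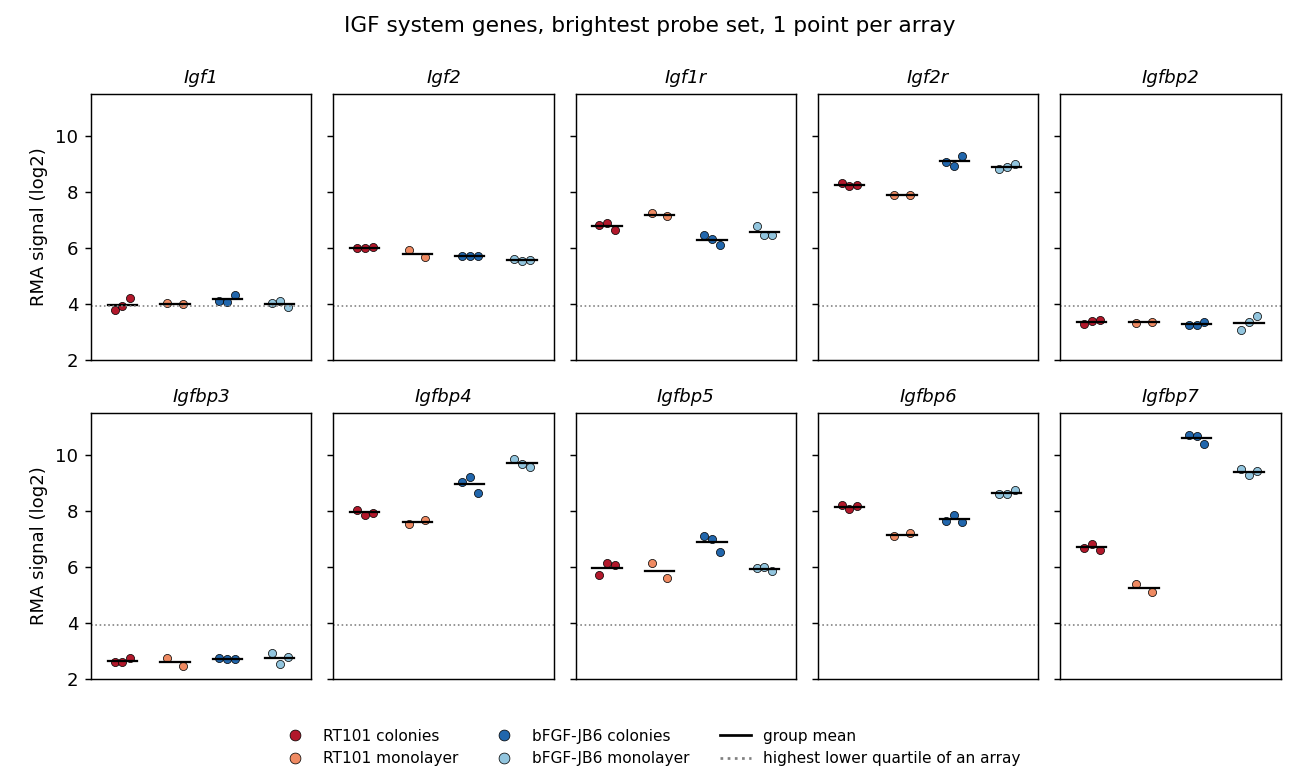
Signals of the 10 IGF system genes, 1 panel per gene and 1 point per array, with RMA signal (log2) on the vertical axis and the 4 groups along the horizontal axis. Igfbp7 lies between 5.08 and 10.71 over the 11 arrays, while Igfbp2 and Igfbp3 stay between 2.44 and 3.56 in all groups.

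Both ligand transcripts gave weak or middling signals. Igf1, the ligand best known as the growth hormone-induced circulating factor, had 3 probe sets, and the brightest read 3.77 to 4.18 in RT101 colonies, 3.98 and 4.02 in RT101 monolayers, 4.05 to 4.31 in bFGF-JB6 colonies and 3.87 to 4.10 in bFGF-JB6 monolayers. The groups overlapped close to the bottom of the scale, and no comparison called Igf1 by this set. The other 2 Igf1 probe sets had means below 3.91. Of these, 1437401_at was called lower in RT101 colonies than in bFGF-JB6 colonies (-0.42, adjusted p = 0.0133). That call was lost without bFGF-JB6 colonies replicate 2 (0.0589) or RT101 colonies replicate 1 (0.0667). The mean of the 3 sets was called there too (-0.28, adjusted p = 0.0445). By the brightest set the colony change was -0.04 in RT101 (95% interval -0.32 to 0.23) and 0.15 in bFGF-JB6 (-0.09 to 0.40). Changes beyond these bounds were not seen, within a compressed range.

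Igf2, the ligand of fetal growth that is expressed from the paternal allele, read 6.0, 5.97 and 6.02 in RT101 colonies and 5.90 and 5.66 in RT101 monolayers. It read 5.70, 5.69 and 5.70 in bFGF-JB6 colonies and 5.59, 5.53 and 5.57 in bFGF-JB6 monolayers. Colony arrays lay above monolayer arrays in each line, and RT101 colonies were the highest of the 4 groups. The colony changes were 0.22 in RT101 (adjusted p = 0.0812) and 0.13 in bFGF-JB6 (adjusted p = 0.255), neither called. RT101 colonies were higher than bFGF-JB6 colonies by 0.30 (SE 0.08, adjusted p = 0.00721), a 1.23-fold difference that was lost when the mean of both Igf2 probe sets was used (0.13, adjusted p = 0.276). The second Igf2 probe set stayed between 2.93 and 3.46 on all arrays.

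Igf1r, the signalling receptor, read 6.79, 6.88 and 6.62 in RT101 colonies and 7.22 and 7.14 in RT101 monolayers. In bFGF-JB6 colonies it read 6.45, 6.30 and 6.09, and in bFGF-JB6 monolayers 6.76, 6.44 and 6.46. RT101 monolayers stood above all other groups, RT101 colonies (mean 6.76) overlapped bFGF-JB6 monolayers (mean 6.55), and these overlapped bFGF-JB6 colonies (mean 6.28). In RT101 colonies Igf1r fell by 0.42 (SE 0.13, adjusted p = 0.0247), and in bFGF-JB6 colonies the change of -0.28 was not called (adjusted p = 0.1). The RT101 call rests on few arrays. It was lost without RT101 monolayer replicate 1 (adjusted p = 0.146), without RT101 monolayer replicate 2 (0.0698) and without RT101 colonies replicate 3 (0.0945), and with the mean of both Igf1r probe sets (0.0631). The test of the difference between the lines' colony changes gave -0.14 (95% interval -0.52 to 0.24, adjusted p = 0.618). RT101 exceeded bFGF-JB6 by 0.63 as monolayers (SE 0.13, adjusted p = 0.00125) and by 0.48 as colonies (SE 0.12, adjusted p = 0.00378). With the mean of both probe sets these differences were 0.36 (adjusted p = 0.00674) and 0.27 (adjusted p = 0.0186). The second set, 1452108_at, read 3.64 to 4.19, close to the bottom of the scale. It was not called as monolayers (0.09, adjusted p = 0.72) or as colonies (0.06, adjusted p = 0.801).

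Igf2r, the receptor that clears IGF2, read 8.29, 8.19 and 8.22 in RT101 colonies and 7.88 on both RT101 monolayer arrays. It read 9.05, 8.92 and 9.26 in bFGF-JB6 colonies and 8.79, 8.87 and 9.0 in bFGF-JB6 monolayers. All bFGF-JB6 arrays lay above all RT101 arrays, and within RT101 the colonies lay above the monolayers. RT101 was lower than bFGF-JB6 by 2.01-fold as monolayers (log2 difference -1.01, SE 0.11, adjusted p = 3.68e-06) and by 1.79-fold as colonies (-0.84, SE 0.10, adjusted p = 7.15e-06), where the mean of both probe sets gave -0.53 (adjusted p = 0.000374). In RT101 colonies Igf2r rose by 0.35 (SE 0.11, adjusted p = 0.023), a call that leaving out any of 4 RT101 arrays ended, with adjusted p of 0.1 and 0.0977 without monolayer replicates 1 and 2 and 0.0731 and 0.0512 without colonies replicates 1 and 3. Median centring of the arrays ended it too (0.0898). In bFGF-JB6 colonies the change was 0.19 (adjusted p = 0.182). The second Igf2r probe set (1424111_at) also read lower in RT101 monolayers (-0.72, adjusted p = 0.0215), a call lost without RT101 monolayer replicate 1 (0.123) or 2 (0.0668) or bFGF-JB6 monolayer replicate 1 (0.0613). As colonies it was not called (-0.21, adjusted p = 0.465). There bFGF-JB6 colonies replicate 3, an array of raised 3' signal, read 5.88 beside 6.78 and 6.89 on the other 2, and without it the difference was -0.53 (adjusted p = 0.000471).

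Binding proteins make up most of the 10 genes. They were all of the members called in bFGF-JB6 colonies, and Igfbp6 and Igfbp7 were called in RT101 colonies beside Igf1r and Igf2r. The promoters of the 4 binding proteins called in a colony comparison are shown because the data separate these genes by direction. They run 5′ to 3′ on the gene's strand from 250 bases before to 50 bases after the annotated start (RefSeq, GRCm38.p6), and capitals mark motif matches.
Igfbp4: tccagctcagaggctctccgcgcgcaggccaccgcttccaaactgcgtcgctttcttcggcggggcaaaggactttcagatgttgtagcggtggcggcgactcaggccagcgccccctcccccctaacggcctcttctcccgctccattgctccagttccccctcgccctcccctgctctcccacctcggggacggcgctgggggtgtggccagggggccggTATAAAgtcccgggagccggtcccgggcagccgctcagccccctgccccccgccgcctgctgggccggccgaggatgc
Igfbp5: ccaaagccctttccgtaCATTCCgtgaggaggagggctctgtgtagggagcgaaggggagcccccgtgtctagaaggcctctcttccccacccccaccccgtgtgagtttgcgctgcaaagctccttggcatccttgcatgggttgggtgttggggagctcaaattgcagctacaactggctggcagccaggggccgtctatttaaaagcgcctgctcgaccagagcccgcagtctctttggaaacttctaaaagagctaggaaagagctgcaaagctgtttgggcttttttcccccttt
Igfbp6: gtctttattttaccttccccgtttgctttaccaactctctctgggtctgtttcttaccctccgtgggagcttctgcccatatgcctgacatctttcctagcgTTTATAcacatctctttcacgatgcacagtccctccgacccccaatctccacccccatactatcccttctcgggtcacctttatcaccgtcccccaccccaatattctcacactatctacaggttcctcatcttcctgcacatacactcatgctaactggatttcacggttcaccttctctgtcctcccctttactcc
Igfbp7: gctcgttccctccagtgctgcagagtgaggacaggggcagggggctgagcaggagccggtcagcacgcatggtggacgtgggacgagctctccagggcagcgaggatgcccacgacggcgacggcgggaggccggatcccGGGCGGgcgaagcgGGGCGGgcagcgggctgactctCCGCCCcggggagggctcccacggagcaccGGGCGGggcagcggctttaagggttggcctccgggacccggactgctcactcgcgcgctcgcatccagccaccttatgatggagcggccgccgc
The windows are chr11:99040994-99041293 on the plus strand for Igfbp4, chr1:72874816-72875115 on the minus strand for Igfbp5, chr15:102143936-102144235 on the plus strand for Igfbp6 and chr5:77407996-77408295 on the minus strand for Igfbp7. The motifs searched on both strands were the TATA box TATAAA, the GC box GGGCGG, the AP-1 site TGANTCA, the E-box CACGTG, the TEAD site CATTCC and the FOXO site GTAAACA. The Igfbp7 window, 73.3% G and C, held 4 GC boxes, 1 of them reversed, where 35.7% of 32851 mouse promoter windows of this length held at least 1. The Igfbp4 window, 71.3% G and C, held a TATA box at position -28 from the start, and the Igfbp6 window, 49.7% G and C, held a reversed one at position -148. Windows with TATAAA made up 13.6% of all. The Igfbp5 window, 56.3% G and C, held a single TEAD site, found in 14.7% of windows. No matches overlapped one another, and the AP-1 site (7.81% of windows), E-box (7.15%) and FOXO site (3.65%) were in none of the 4 windows. A match is a run of letters and was not tested as a binding site.

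Igfbp7, also known as IGFBP-rP1 or angiomodulin and notable for binding IGFs only weakly, had the largest line difference of the 10 genes by their brightest probe sets. It read 6.66, 6.80 and 6.60 in RT101 colonies and 5.39 and 5.08 in RT101 monolayers. It read 10.71, 10.67 and 10.38 in bFGF-JB6 colonies and 9.48, 9.29 and 9.42 in bFGF-JB6 monolayers. The 4 groups did not overlap and ranked bFGF-JB6 colonies, bFGF-JB6 monolayer, RT101 colonies and RT101 monolayer from high to low. Colonies were higher than monolayers by 2.74-fold in RT101 (log2 change 1.45, SE 0.13, adjusted p = 1.04e-06) and by 2.28-fold in bFGF-JB6 (1.19, SE 0.11, adjusted p = 3.3e-06). The difference between these changes was 0.26 (95% interval -0.10 to 0.63, adjusted p = 0.293), so the rises were not shown to differ. RT101 lay 17.9-fold below bFGF-JB6 as monolayers (-4.16, SE 0.13, adjusted p = 1.26e-11) and 14.9-fold below as colonies (-3.89, SE 0.11, adjusted p = 9.35e-12). With the mean of the 3 Igfbp7 probe sets these differences were -1.52 and -1.75. The colony changes were then 0.51 in RT101 and 0.74 in bFGF-JB6, and all 4 values were called. That mean contains the brightest set, so it is not a separate reading. In RT101 colonies the other sets gave 0.04 (1423585_at) and 0.05 (1437804_at), neither called, so the rise there rests on the brightest set. In such bulk RNA, fewer cells with a transcript and less transcript per cell cannot be told apart.

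The 3 Igfbp7 probe sets did not read alike. The dimmer 1423585_at read 3.15, 3.63 and 3.99 in RT101 colonies and 3.65 and 3.45 in RT101 monolayers, near the bottom of the scale, and 5.09, 4.58 and 5.15 in bFGF-JB6 colonies and 4.37, 4.06 and 4.10 in bFGF-JB6 monolayers. It was called higher in bFGF-JB6 colonies (0.77, adjusted p = 0.0126) and not in RT101 colonies (0.04, adjusted p = 0.938). The probe set 1437804_at stayed between 6.06 and 6.60 on all 11 arrays and was called in no comparison. The position of each probe set on the transcript was not used here.

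Igfbp6, a binding protein with a preference for IGF2, changed in opposite directions in the colonies of the lines. It read 8.20, 8.07 and 8.17 in RT101 colonies and 7.10 and 7.19 in RT101 monolayers. It read 7.63, 7.86 and 7.58 in bFGF-JB6 colonies and 8.61, 8.58 and 8.73 in bFGF-JB6 monolayers. No groups overlapped, and the order from high to low was bFGF-JB6 monolayer, RT101 colonies, bFGF-JB6 colonies and RT101 monolayer. RT101 colonies were higher than their monolayers by 1.0 (SE 0.10, adjusted p = 5.03e-06). bFGF-JB6 colonies were lower than theirs by 1.93-fold (-0.95, SE 0.09, adjusted p = 4.01e-06). The test of the difference gave 1.95 (SE 0.14, adjusted p = 2.36e-07), and a rise in RT101 colonies with a fall in bFGF-JB6 colonies was called for 353 of all genes (2.85%). RT101 was therefore the lower line as monolayers (-1.49, adjusted p = 4.98e-08) and the higher line as colonies (0.46, adjusted p = 0.000963), values that come from the same 4 group means. Igfbp6 has 1 probe set here, so no second reading was available. Without the 2 arrays of raised 3' signal the colony change in bFGF-JB6 was -0.91 (adjusted p = 8.87e-05).

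Igfbp4, an inhibitor of IGF action that the protease PAPP-A cuts, had 6 probe sets. The brightest read 8.04, 7.85 and 7.92 in RT101 colonies and 7.54 and 7.68 in RT101 monolayers. It read 9.02, 9.21 and 8.64 in bFGF-JB6 colonies and 9.85, 9.67 and 9.57 in bFGF-JB6 monolayers. Every bFGF-JB6 array lay above every RT101 array, with monolayers above colonies in bFGF-JB6 and colonies above monolayers in RT101. Igfbp4 fell in bFGF-JB6 colonies by 1.68-fold (-0.74, SE 0.13, adjusted p = 0.000684). The change in RT101 colonies was 0.33 (SE 0.15, adjusted p = 0.114) and was not called, although it was once both arrays with raised 3' Gapdh signal were left out (0.33, adjusted p = 0.0192), and the colony changes differed by 1.07 (SE 0.20, adjusted p = 0.001). RT101 was lower than bFGF-JB6 by 4.25-fold as monolayers (-2.09, SE 0.15, adjusted p = 5.73e-08) and by 2.02-fold as colonies (-1.02, SE 0.13, adjusted p = 2.05e-05).

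Tested probe set by probe set over all 20380, Igfbp4 fell in bFGF-JB6 colonies on 5 of its 6 probe sets, by 0.54 to 0.74, where 26.9% of all probe sets were called in either direction. The exception, 1421991_a_at, gave -0.45 (adjusted p = 0.0506). Without the 2 arrays of raised 3' signal all 6 were called, at -0.33 to -0.52. In RT101 colonies 1423756_s_at rose by 0.62 (adjusted p = 0.0037, and 0.0513 without RT101 monolayer replicate 1), and the other 5 gave 0.19 to 0.42 without passing, where 29.6% of all probe sets were called. Without the same 2 arrays 4 of the 6 were called higher there. As monolayers all 6 were lower in RT101, by 1.03 to 2.50, where 41.4% of all probe sets were called. Probe sets of a gene share its transcripts and are not replicates, and the suffixes _s and _x mark sets whose probes can match more than 1 transcript.

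Igfbp5, a binding protein that also attaches to extracellular matrix, rose in bFGF-JB6 colonies. The brightest probe set, 1422313_a_at, read 5.69, 6.12 and 6.05 in RT101 colonies and 6.13 and 5.59 in RT101 monolayers. It read 7.11, 6.97 and 6.54 in bFGF-JB6 colonies and 5.94, 5.99 and 5.83 in bFGF-JB6 monolayers. bFGF-JB6 colonies stood above the other groups, which overlapped one another. The colony change was 1.94-fold in bFGF-JB6 (0.95, SE 0.16, adjusted p = 0.000601) and 0.10 in RT101 (adjusted p = 0.766). The changes differed by -0.86 (SE 0.25, adjusted p = 0.0191), a call lost without RT101 monolayer replicate 1 (-0.59, adjusted p = 0.134).

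The other Igfbp5 probe set, 1452114_s_at, gave a wider range. It read 3.34, 3.28 and 3.38 in RT101 colonies and 3.03 and 2.82 in RT101 monolayers, all near the bottom of the scale. It read 8.82, 8.55 and 8.76 in bFGF-JB6 colonies and 5.46, 5.34 and 5.64 in bFGF-JB6 monolayers. The bFGF-JB6 groups stood apart from each other and above all RT101 arrays. RT101 colonies and monolayers lie where signals give no order. bFGF-JB6 colonies were 9.36-fold above their monolayers (3.23, SE 0.11, adjusted p = 1.16e-09). This change stayed between 3.16 and 3.31 when each bFGF-JB6 array was left out in turn, and leaving out RT101 arrays cannot move it. The fitted RT101 colony change of 0.41 (adjusted p = 0.0185) lies wholly near the bottom, and its call was lost without RT101 monolayer replicate 2 (adjusted p = 0.177) or RT101 colonies replicate 3 (0.0578). Between the lines this probe set read lower in RT101, with fitted differences of -2.56 as monolayers (adjusted p = 5.82e-09) and -5.37 as colonies (adjusted p = 2.48e-12). Because RT101 signals are near the bottom of the scale, these sizes are compressed and are not exact. The brighter set gave -0.06 as monolayers (adjusted p = 0.825) and -0.92 as colonies (adjusted p = 0.000384), so the sets disagree on whether the attached lines differ. With the mean of both sets the differences were -1.31 and -3.15, and the bFGF-JB6 colony change was 2.09.

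**Figure D2:**
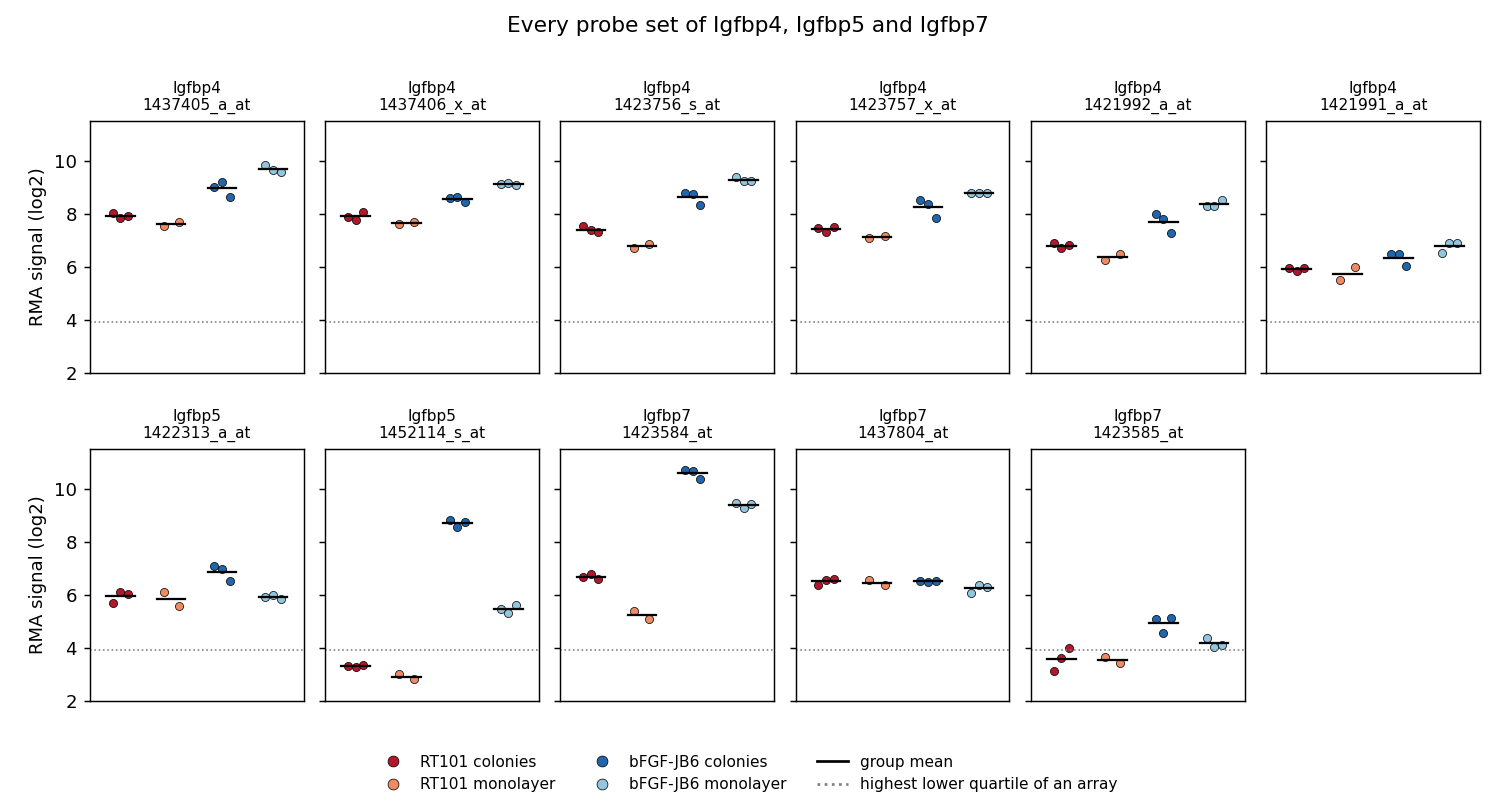
All 11 probe sets of Igfbp4, Igfbp5 and Igfbp7, 1 panel each and 1 point per array, with RMA signal (log2) on the vertical axis and the 4 groups along the horizontal axis. The Igfbp4 sets share 1 pattern of groups, 1452114_s_at sets both bFGF-JB6 groups apart from RT101 for Igfbp5 while 1422313_a_at sets bFGF-JB6 colonies apart, and 1437804_at is flat for Igfbp7.

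Igfbp2, a carrier of fetal tissues and brain, and Igfbp3, the main IGF carrier of blood, gave signals near the bottom of the scale. Igfbp2 read 3.28 to 3.42 in RT101 colonies, 3.30 and 3.35 in RT101 monolayers, 3.24 to 3.34 in bFGF-JB6 colonies and 3.06 to 3.56 in bFGF-JB6 monolayers. Igfbp3 read 2.58 to 2.73, 2.44 and 2.73, 2.69 to 2.72 and 2.52 to 2.93 in the same groups. Each has 1 probe set, the groups overlapped near the bottom of the scale, and neither gene was called in any comparison. Signals at this level give no order of the groups and do not show that the transcripts are absent.

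**Figure D3:**
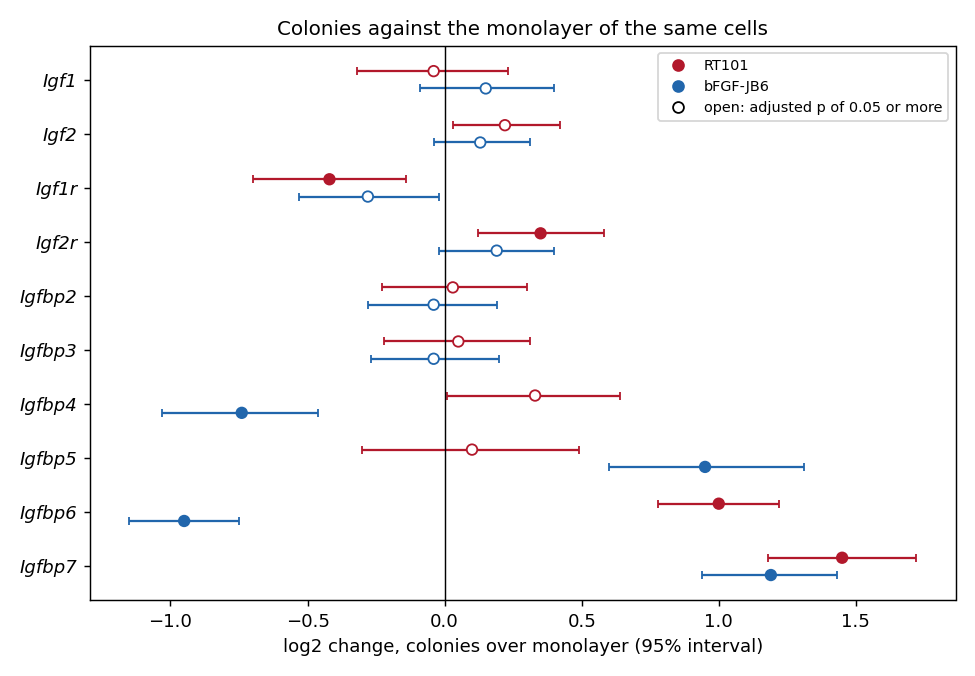
Change in colonies against the monolayer of the same cells, as a log2 difference on the horizontal axis, for each of the 10 genes, with points for the fitted change, bars for its 95% interval and filled points for an adjusted p under 0.05. Igfbp7 lies right of 0 in both lines, at 1.45 in RT101 and 1.19 in bFGF-JB6, and Igfbp6 lies on opposite sides, at 1.0 and -0.95.

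Between the lines members were called in both directions. As monolayers Igf2r, Igfbp4, Igfbp6 and Igfbp7 were lower and Igf1r was higher in RT101, and 4 of the 10 genes differed by at least 2-fold, where 12.2% of all genes did. As colonies Igf2r, Igfbp4, Igfbp5 and Igfbp7 were lower and Igf2, Igf1r and Igfbp6 higher in RT101. By their brightest probe sets 2 passed 2-fold (Igfbp4 and Igfbp7), where 10.1% of all genes did. Which genes passed 2-fold depends on the probe set. With the mean of probe sets Igfbp5 (-1.31) passed as monolayers and Igf2r (-0.86) did not. As colonies Igfbp5 (-3.15) then passed and Igfbp4 (-0.83) did not. The arrays of the lines did not overlap for 6 of the 10 genes as monolayers (61.1% of all genes) and for 7 as colonies (50.4% of all genes). In the colony comparisons the arrays did not overlap for 6 genes in RT101 (56.1% of all genes) and 5 in bFGF-JB6 (37.8% of all genes). The median difference of the 10 genes was -0.11 between monolayers and -0.13 between colonies, against 0.05 and 0 over all genes.

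**Figure D4:**
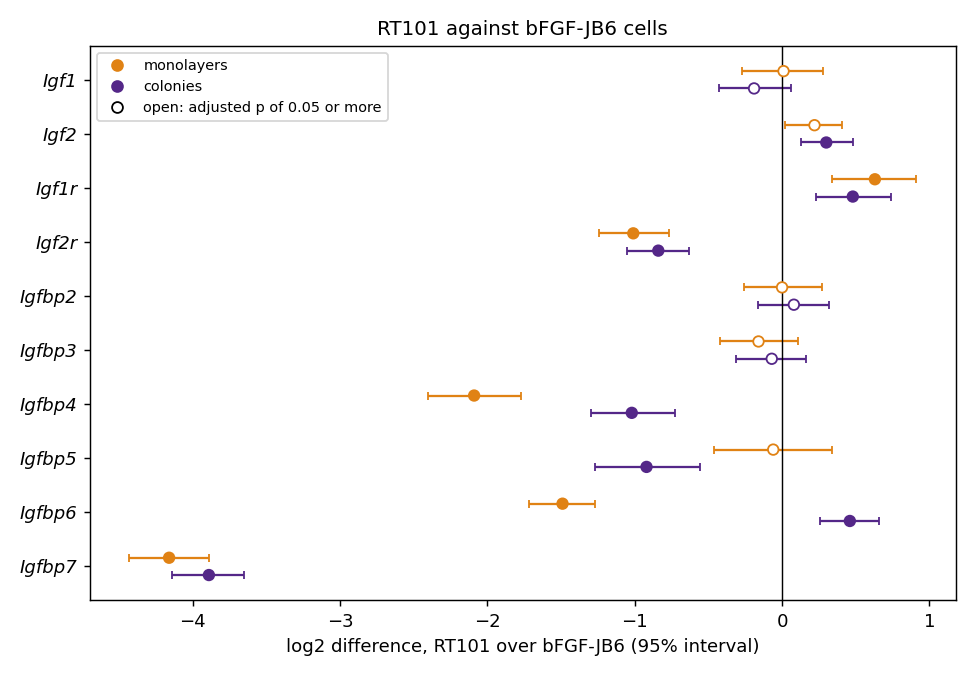
Difference between RT101 and bFGF-JB6 cells, as log2 RT101 over bFGF-JB6 on the horizontal axis, for the 10 genes as monolayers and as colonies, with bars for the 95% interval and filled points for an adjusted p under 0.05. Igfbp7 lies farthest left, at -4.16 and -3.89, and Igfbp6 changes side, at -1.49 for monolayers and 0.46 for colonies.

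Genes whose pattern over the 11 arrays was most like that of a member were ranked by Pearson's r among 2866 genes whose group means spanned at least 1, for the 5 members that did so too. For Igfbp7 these were Mgst1 (r = 0.997), a membrane-bound glutathione transferase, Hsd11b1 (0.994), which reactivates glucocorticoids, and Tpra1 (0.993). For Igfbp6 they were Zcchc17 (0.992), Glrx (0.978), encoding a glutaredoxin, and Oaf (0.970). Igfbp4 came with Clcf1 (0.987), a cytokine of the IL-6 family, Midn (0.987) and Dok1 (0.986), and Igf2r with Sptbn1 (0.988), C330007P06Rik (0.988) and Calhm2 (0.987). Igfbp5, by its brighter probe set, came with Abca8a (0.942), Ces1d (0.938) and Nr1d1 (0.929). These points share 4 groups, so r mostly restates the order of the group means, and it is given as a description.

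The rest of the pathway was read from 6 lists of 90 genes, of which 77 were measured. Of 13 insulin receptor and adaptor genes 2 rose and 5 fell in RT101 colonies, with a median of -0.12, and 1 rose and 2 fell in bFGF-JB6 colonies, with a median of 0.10. Irs1, the adaptor that passes the signal from the IGF1 receptor to PI3-kinase, read 6.63, 6.42 and 6.65 in RT101 colonies and 8.48 and 8.45 in RT101 monolayers. It read 9.31, 9.24 and 9.60 in bFGF-JB6 colonies and 9.22, 9.07 and 9.25 in bFGF-JB6 monolayers. RT101 colonies stood well below the other groups. Irs1 fell there by 1.90 (SE 0.12, adjusted p = 4.9e-08), its change in bFGF-JB6 colonies was 0.20 (adjusted p = 0.185), and the changes differed by -2.10 (adjusted p = 4.13e-07). Sos1, the exchange factor that links the receptor to Ras, fell by 1.12 in RT101 colonies (adjusted p = 0.000164) and gave 0.18 in bFGF-JB6 colonies (adjusted p = 0.435). Grb10, an imprinted adaptor that restrains the receptor and was picked out after its values were seen, fell by 0.99 in RT101 colonies (adjusted p = 3.98e-06) and gave 0.08 in bFGF-JB6 colonies (adjusted p = 0.588). Insr, the insulin receptor, stayed near the bottom of the scale with group means of 3.72 to 3.78.

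Of 16 measured IGFBP proteases and their inhibitors, 5 rose and 4 fell in RT101 colonies and 4 rose and 5 fell in bFGF-JB6 colonies. Mmp2, a gelatinase, rose by 2.13 in RT101 colonies (adjusted p = 5.42e-08) and by 2.26 in bFGF-JB6 colonies (adjusted p = 1.38e-08), and the difference of -0.13 was not called (adjusted p = 0.67). Mmp9, the other gelatinase, rose by 2.68 in RT101 colonies (adjusted p = 8.58e-09) and fell by 0.46 in bFGF-JB6 colonies (adjusted p = 0.0136). Timp1, an inhibitor of such metalloproteinases, gave -0.10 in RT101 colonies (adjusted p = 0.647) and fell by 1.77 in bFGF-JB6 colonies (adjusted p = 1.18e-07). Plaur, the urokinase receptor, fell by 1.90 in RT101 colonies (adjusted p = 3.39e-08) and gave -0.19 in bFGF-JB6 colonies (adjusted p = 0.195).

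Pappa, which encodes PAPP-A, and Stc1, which encodes stanniocalcin, a PAPP-A inhibitor, were picked out after their values were seen because PAPP-A cuts the Igfbp4 protein. Pappa read 4.37, 4.52 and 4.76 in RT101 colonies, 4.81 and 4.39 in RT101 monolayers, 5.84, 5.94 and 5.97 in bFGF-JB6 colonies and 4.95, 4.90 and 4.91 in bFGF-JB6 monolayers. Stc1 read 4.42, 4.81 and 4.39 in RT101 colonies, 4.82 and 4.30 in RT101 monolayers, 5.38, 5.41 and 5.81 in bFGF-JB6 colonies and 6.84, 7.00 and 6.91 in bFGF-JB6 monolayers. In bFGF-JB6 colonies, where Igfbp4 fell, Pappa rose by 0.99 (adjusted p = 2.43e-05) and Stc1 fell by 1.38 (adjusted p = 1.39e-05), while in RT101 the colony and monolayer arrays of Pappa and Stc1 overlapped. Stc2, the other stanniocalcin of the list and named after its values were seen, gave -0.18 in bFGF-JB6 colonies (adjusted p = 0.322) and fell by 0.88 in RT101 colonies (adjusted p = 0.000172). All of these are RNA signals, while PAPP-A acts on the Igfbp4 protein. A link of Pappa or Stc1 with the Igfbp4 transcript or protein was not tested.

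In the PI3-kinase, AKT and mTOR arm, 2 of 14 measured genes rose and 1 fell in each line's colonies. Eif4ebp1, a translation repressor that mTOR phosphorylates, fell by 1.41 in RT101 colonies (adjusted p = 2.06e-07) and gave -0.13 in bFGF-JB6 colonies (adjusted p = 0.353). Of the transcription factors that AKT keeps out of the nucleus, Foxo3 rose by 1.20 in RT101 colonies (adjusted p = 6.52e-06) and gave 0.19 in bFGF-JB6 colonies, while Foxo1 gave 0.28 in RT101 colonies and rose by 1.02 in bFGF-JB6 colonies (adjusted p = 1.35e-05). Of 13 measured carriers and IGFBP-related genes, 3 rose and 3 fell in RT101 colonies and 5 rose and 1 fell in bFGF-JB6 colonies. Kazald1, whose protein has an IGFBP-like domain, rose by 2.50 in RT101 colonies (adjusted p = 1.75e-09) and by 0.56 in bFGF-JB6 colonies (adjusted p = 0.000704). Ccn4, a matricellular protein with such a domain, fell by 0.89 in RT101 colonies (adjusted p = 3.41e-05) and rose by 1.28 in bFGF-JB6 colonies (adjusted p = 5.77e-07). Its relative Ccn1 fell by 1.98 in RT101 colonies (adjusted p = 3.72e-07) and gave -0.07 in bFGF-JB6 colonies. Ltbp1, which holds latent TGF-beta in the matrix, fell in both, by 0.54 in RT101 colonies (adjusted p = 0.000701) and by 1.14 in bFGF-JB6 colonies (adjusted p = 4.33e-07).

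Of 14 measured Igf2 mRNA-binding and imprinted genes 1 rose and 1 fell in RT101 colonies and 2 rose and 1 fell in bFGF-JB6 colonies. Plagl1, an imprinted zinc-finger gene, gave -0.20 in RT101 colonies (adjusted p = 0.194) and rose by 1.75 in bFGF-JB6 colonies (adjusted p = 1.91e-08). Of 7 measured genes of the insulin and growth hormone axis, 2 rose and 1 fell in each line's colonies. Stat5a, which relays growth hormone signals, rose by 1.32 in RT101 colonies (adjusted p = 8.76e-06) and by 0.74 in bFGF-JB6 colonies (adjusted p = 0.000674), and Socs2, a feedback inhibitor of that signal, fell by 1.41 (adjusted p = 3.61e-08) and by 0.35 (adjusted p = 0.00309). The counts of all 6 lists stand beside 32.4% of genes called in RT101 colonies and 29.4% in bFGF-JB6 colonies.

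**Figure D5:**
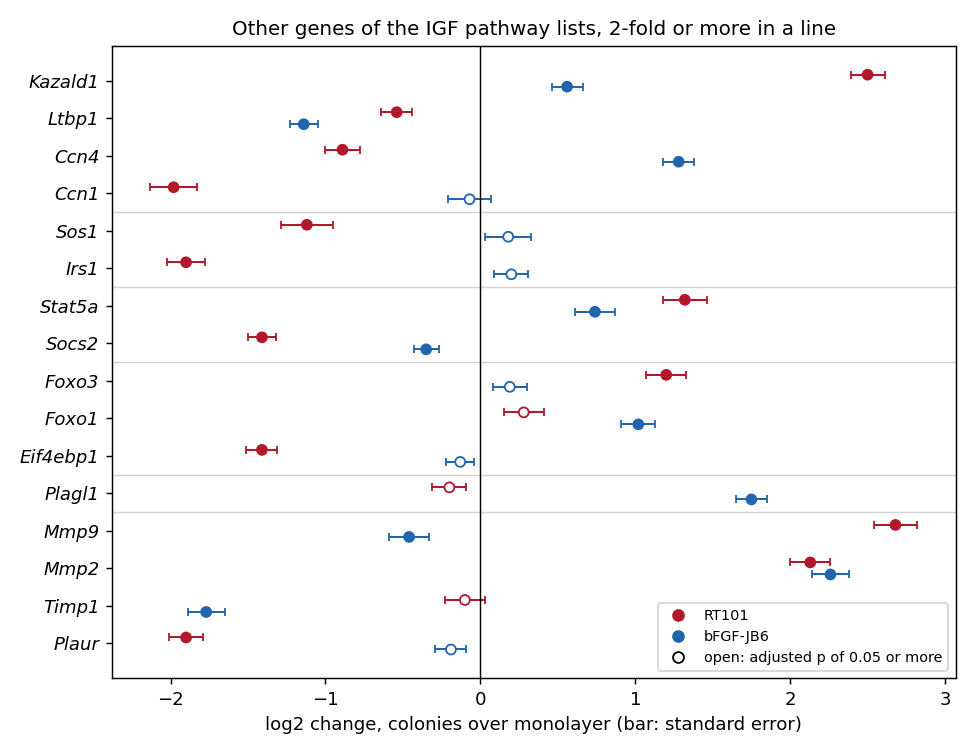
Log2 change in colonies against the monolayer of the same cells for 16 genes of the pathway lists that were called with at least a 2-fold change in a line, with standard errors as bars and filled points for an adjusted p under 0.05. Irs1, Sos1, Eif4ebp1, Plaur and Ccn1 were called lower in RT101 and were not called in bFGF-JB6, and Mmp2 lies above 2 in both.

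Markers of other cell types moved with some of these groups. Fibroblast and mesenchymal markers, summed over 12 genes, came to 14.90 to 14.94 on the log2 scale in RT101 colonies and 14.21 to 14.26 in RT101 monolayers, with 7 of them called higher in RT101 colonies. They came to 14.82 to 14.94 in bFGF-JB6 colonies and 14.77 to 14.79 in bFGF-JB6 monolayers, with 5 called higher and 2 lower in these colonies. Between the lines 6 were called lower in RT101 as monolayers, and 4 higher and 2 lower as colonies. Keratinocyte markers summed to 9.10 to 9.24 in RT101 colonies, 9.60 to 9.61 in RT101 monolayers, 9.18 to 9.26 in bFGF-JB6 colonies and 10.26 to 10.28 in bFGF-JB6 monolayers. Itga6, the brightest of them, averaged 8.60 in RT101 colonies and 9.21 in RT101 monolayers (-0.61, adjusted p = 8.39e-05), and 8.17 in bFGF-JB6 colonies and 9.95 in bFGF-JB6 monolayers (-1.78, adjusted p = 1.83e-09). It was the 1 marker called lower in each line. Krt10 was among 2 called higher in bFGF-JB6 colonies (0.54, adjusted p = 0.00528), and the median change of the 11 was -0.04 in RT101 colonies and 0.06 in bFGF-JB6 colonies. Of the others, macrophage markers summed to 8.36 to 8.47 in RT101 colonies and 8.13 to 8.14 in RT101 monolayers, and to 9.68 to 9.79 in bFGF-JB6 colonies and 9.23 to 9.26 in bFGF-JB6 monolayers, with group means of Ptprc at 2.34 to 2.53. Of these 9 markers 3 were called higher and 1 lower in bFGF-JB6 colonies, and 2 higher in RT101 colonies. In bFGF-JB6 colonies and monolayers Cd68 averaged 8.31 and 6.45, and Cd14 averaged 8.63 and 8.69. Adipocyte markers summed to 7.02 to 7.15 in RT101 colonies and 6.40 to 6.69 in RT101 monolayers, and to 9.35 to 9.39 in bFGF-JB6 colonies and 9.93 to 10.04 in bFGF-JB6 monolayers, and Fabp4 was the 1 of 6 called in either colony comparison. Summed endothelial markers stayed at 6.55 to 6.83 and summed skeletal muscle markers at 7.20 to 7.38 over all arrays, although 1 of 8 endothelial markers was called higher in bFGF-JB6 colonies. The part of these cell type markers in the IGF system changes was not tested.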

How the data were processed

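Total RNA from the 4 groups was labelled and hybridised to Affymetrix arrays, 1 sample per array. The deposited values are log2 signals, 1 per probe set and array, and RMA (no version stated) is the tool that the submitters' processing notes name. Scanning settings are not given in the sources used here. RMA corrects background, brings arrays to a common distribution and summarises probes. Groups and replicate numbers came from the titles, source names and descriptions. No further scaling or filter was applied. Array signals carry no counts, and precision is limited by how many arrays there are.

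The table held 22690 probe sets, of which 64 were controls, 20380 named 1 gene symbol in the platform annotation, 691 several and 1555 none. By gene number 20351 of the 20380 matched the RefSeq gene table. For each of the 12393 genes the brightest of its single-gene probe sets was used, and the other probe sets of the members were read beside it. All 11 arrays entered 1 linear model with group as its only term (limma 3.58.1, R 4.3.3), with eBayes (7 residual and 6.12 prior degrees of freedom), and p-values were adjusted by Benjamini-Hochberg over all genes, or over all 20380 probe sets where probe sets are named. The procedure was also run on simulated data with independent values and few changed genes. That setting is unlike these data, and no result here rests on it. Promoters are those of RefSeq, matched by symbol for 4 of 4 genes.

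Alternatives were blocks for the replicate number or letter, the mean over a gene's probe sets, each probe set by itself, genes at or above the median, median centring, cyclic loess, trended robust variances, array weights, only the compared groups, a 2-fold minimum, and leaving out each array or both with raised 3' signal.

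Same-numbered RT101 and bFGF-JB6 colony arrays deviated together from their group means (r from 0.111 to 0.32 over 3 pairs, by title number and by letter). The labels do not state a pairing, and so few pairs cannot establish one. Same-numbered bFGF-JB6 monolayer and RT101 colony arrays gave 0.148, 0.124 and -0.108.

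Members, pathway lists, marker lists and tests were chosen with earlier results of these data known. Pathway genes were named by a rule: up to 4 of each list with the largest change among those called at 2-fold or more in a colony comparison. Leaving out each array with probe sets tested separately, and leaving out both arrays of raised 3' signal with probe sets tested separately, were chosen after seeing the data. Python 3.11.15 and matplotlib 3.10.9 drew the plots.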

Additional observations from a re-analysis of the deposited data

Results flagged for a closer look

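The colony changes of the lines differed by the test of the difference itself (RT101 minus bFGF-JB6, log2, limma, adjusted p under 0.05) for 3 of the 10 members and for 23 of the 77 pathway genes measured (29.9%, against 27.7% of all genes). The 15 pathway genes given here are those among the genes named for a 2-fold colony change, at most 4 a list. Among the binding proteins the difference was 1.95 for Igfbp6, which rose in RT101 colonies and fell in bFGF-JB6 colonies, 1.07 for Igfbp4, and -0.86 for Igfbp5, with a fitted -2.82 on its other probe set, 1452114_s_at. On that set RT101 signals lie near the bottom of the scale, so the RT101 colony change is not measured there and -2.82 is not an exact difference. Among adaptors and the growth hormone axis it was -2.10 for Irs1, -1.29 for Sos1, -1.06 for Socs2 and 0.59 for Stat5a. Among proteases and their inhibitors it was 3.14 for Mmp9, -1.71 for Plaur and 1.67 for Timp1. In the PI3-kinase, AKT and mTOR arm it was -1.28 for Eif4ebp1, -0.74 for Foxo1 and 1.01 for Foxo3. It was 1.94 for Kazald1, -2.18 for Ccn4, -1.90 for Ccn1, 0.61 for Ltbp1 and -1.95 for the imprinted gene Plagl1. No group held the 4 arrays that a check for outlying samples needs.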

How the results depend on the processing

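Over 1115 values of the 10 genes under other settings, 1049 kept direction and side of the threshold, 24 lost their call, 11 gained one and 31 changed sign, none of these 31 called in either fit. Part of this agreement was fixed in advance. Leaving out an array outside the compared groups cannot alter a log2 change in this model. Some settings, such as the 2-fold minimum, reuse the same fitted changes. Genes never called count as kept wherever their sign held, so the tally does not measure stability. A 2-fold minimum left 2 members called in RT101 colonies, 1 in bFGF-JB6 colonies and 2 between the lines' colonies. Leaving out 1 array at a time gave 2 to 5 called members in RT101 colonies, with 2 without RT101 monolayer replicate 2 and 2 without RT101 colonies replicate 3, 4 to 5 in bFGF-JB6 colonies, 2 to 3 for the difference, 5 to 6 between monolayers and 7 to 7 between colonies. The Igfbp5 difference between monolayers became -1.31 (adjusted p = 1.27e-06) with the mean of its probe sets. Same-lettered RT101 and bFGF-JB6 monolayer arrays deviated together (r = 0.174 and 0.148). The 2 RT101 monolayer arrays deviate from their mean as mirror images, so these values are not independent. For bFGF-JB6 monolayer replicate 2 the title number gave -0.174 in place of 0.174. In that comparison the letter block called 5366 genes against 5504 without it, and it changed no member's call. Over all groups, deviations of same-numbered arrays correlated at -0.336 to 0.32 over 15 pairs by title number and -0.276 to 0.32 by description letter. By number and by letter, 4 and 5 of 11 arrays correlated best with their own, and the count expected without pairing was not computed. For RT101 against bFGF-JB6 colonies, where same-numbered arrays also deviated together, the replicate block left the same count of 7 members called by number or letter. It changed no member's call there, and gave 5291 genes by number and 5420 by letter against 5372 without it. With the title number as a replicate block 4 members were called in RT101 colonies and 4 in bFGF-JB6 colonies, and over all genes 3887 were called in RT101 colonies against 4013 without it and 3550 in bFGF-JB6 colonies against 3642. Igf2r in RT101 colonies then had an adjusted p of 0.0508 and Igfbp4 one of 0.0412. Fitting only the RT101 groups (0.0233) or leaving out bFGF-JB6 colonies replicate 3 (0.0296) made Igfbp4 a call. With the letter as the block 4 and 5 were called. Members below the median gene had no value in the fit of genes at or above it.

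Sign changes fell on small values, and the cause was not tested. With single arrays left out, the values that turned lay in these ranges: in RT101 colonies -0.15 to 0.05 for Igf1, -0.09 to 0.19 for Igfbp3, -0.17 to 0.37 for Igfbp5 and 0 to 0.07 for Igfbp2; in bFGF-JB6 colonies -0.17 to 0.07 for Igfbp2 and -0.14 to 0.06 for Igfbp3; for the difference -0.04 to 0.20 for Igfbp2, -0.06 to 0.23 for Igfbp3 and -0.03 to 0.21 for Igf2; between monolayers -0.06 to 0.06 for Igf1, -0.12 to 0.12 for Igfbp2 and -0.33 to 0.21 for Igfbp5. Under other settings, Igfbp2 in RT101 colonies gave -0.03 with the title block and -0.06 with median centring, Igfbp3 gave -0.04 there with centring, and in bFGF-JB6 colonies Igf2r gave -0.03 with the mean of probe sets. For the difference, Igfbp7 gave -0.23 with the mean of probe sets and Igfbp2 -0.01 with centring. Without both arrays of raised 3' signal Igfbp3 gave 0.06 in bFGF-JB6 colonies and -0.01 for the difference, and Igfbp2 gave -0.12 between monolayers. Between monolayers Igf1 gave -0.03 with the letter block and -0.06 with cyclic loess, Igfbp2 gave -0.06, -0.05 and -0.08 with the letter block, cyclic loess and array weights, and Igfbp5 gave 0.03 with centring.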
